A study of Mus musculus with 16 samples.

Results

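Promoter Capture Hi-C (P-CHi-C) maps the DNA that folds onto gene promoters, here in mouse liver over the day, and the interactions described here are the 7624 pairs of HindIII fragments that were listed at ZT0 and at ZT6 and were missing from the lists of ZT12 and ZT18. They are called ZT0/ZT6 pairs below. Zeitgeber time (ZT) counts hours from lights on, so these are the pairs listed at both timepoints sampled from lights on to the middle of the light phase, and at neither of those sampled at lights off and in the dark. They were chosen by their presence in these lists, so their presence and their scores are a description and not a finding. They made up 3.08% of the 247177 distinct pairs over the 4 lists. Pairs with the opposite pattern, listed at ZT12 and ZT18 only (ZT12/ZT18 pairs), numbered 8649, or 3.50%. The other combinations of exactly 2 lists held between 6098 pairs (ZT0 and ZT12) and 7709 pairs (ZT6 and ZT12), and 80235 pairs were in all 4 lists. The number of ZT0/ZT6 pairs thus lay within the range of the other combinations.

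All livers came from wild type male C57BL/6 mice, a common inbred strain, 8 weeks old, fed without restriction under a cycle with 12 h of light a day. The groups differed only in the time of collection: ZT0, ZT6, ZT12 or ZT18. Nothing else was varied, and all groups share the genotype. Each timepoint had 3 pools of 2 livers (16 samples, since pool A was run on 2 lanes), and the authors merged the pools before calling interactions. There is therefore 1 list per timepoint and no replicate error, and no difference between lists has a replicate check or a test. Whole liver holds several cell types, and a contact made in fewer cells cannot be told apart from one that is weaker in each cell. The assay gives no RNA level, so the tissue could not be checked here against its marker genes.

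The study's own summary of list totals puts the timepoints in another order than the sample labels do. In that order the lists labelled ZT6, ZT12 and ZT18 would be those of ZT18, ZT6 and ZT12. The labels were followed, and they are also the order in which the study describes the contacts of Arntl over the day. By the labels, the Arntl promoter had 3 listed contacts at ZT0, 2 at ZT18 and none at the other timepoints. In the other order its 2 contacts would be at ZT12. Values in the other order are given beside the results on distance, composition, gene density, promoter pairs and the contacts of Per1 and Per2. In the other order the 7624 pairs would be pairs of ZT0 and ZT18, and a separate set of 6098 pairs would take their place.

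Promoters reach distant regulatory DNA when the chromatin fibre folds back on itself, and such contacts can join a promoter to an enhancer, to another promoter or to a silent neighbourhood. In the liver a large part of transcription follows the time of day. It is driven by the core clock, in which the activators Arntl and Clock switch on the Per and Cry genes that repress them, and by feeding. In P-CHi-C, crosslinked chromatin is cut with HindIII and religated, and products that carry a promoter fragment, the bait, are captured with RNA probes. CHiCAGO then scores each pair of fragments against the reads expected from distance and technical noise, and pairs that scored 5 or more were deposited.

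The fragments themselves are the units that were ligated and scored. A set of 4 short contacted fragments, from pairs named below, is shown whole because each is under 300 bases. The contact is not thereby narrowed to these bases. Each bait also had a ZT12 or ZT18 contact within 10 kb of the fragment shown, and those of Gm5111 lie in a series of contacted fragments. They are given on the forward strand of mm9 with the ends left by HindIII in capitals. The first lies in an intron of Fras1, the next pair side by side in an intron of the gene model Gm16630, and the last between genes downstream of Foxo1. Their GC content was 41.0%, 41.2%, 46.6% and 44.8%, and each held 1 CpG.
Fras1 contact, chr5:97192410-97192609: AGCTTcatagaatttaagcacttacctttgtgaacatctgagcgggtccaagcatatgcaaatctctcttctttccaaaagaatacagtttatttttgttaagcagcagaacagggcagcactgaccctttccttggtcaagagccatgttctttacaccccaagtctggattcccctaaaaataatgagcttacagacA
Gm5111 contact, chr6:48129720-48129940: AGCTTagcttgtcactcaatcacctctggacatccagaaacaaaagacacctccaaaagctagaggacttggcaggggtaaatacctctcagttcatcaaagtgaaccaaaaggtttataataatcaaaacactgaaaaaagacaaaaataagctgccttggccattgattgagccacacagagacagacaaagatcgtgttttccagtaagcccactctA
Gm5111 contact, chr6:48129941-48130204: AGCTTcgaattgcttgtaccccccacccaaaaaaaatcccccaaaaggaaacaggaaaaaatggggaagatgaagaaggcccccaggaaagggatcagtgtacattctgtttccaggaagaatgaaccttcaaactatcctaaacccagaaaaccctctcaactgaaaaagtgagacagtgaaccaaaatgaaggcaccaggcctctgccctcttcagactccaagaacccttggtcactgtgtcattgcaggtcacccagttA
Foxo1 contact, chr3:52419299-52419508: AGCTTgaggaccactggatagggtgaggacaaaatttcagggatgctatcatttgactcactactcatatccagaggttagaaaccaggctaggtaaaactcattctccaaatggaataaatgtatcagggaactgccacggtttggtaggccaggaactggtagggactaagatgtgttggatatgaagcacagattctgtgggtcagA

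On the promoter side, the 250 bases before the annotated start (mm9, in the direction of the gene) are shown for 3 promoters that carry results below: Fras1 with the highest-scoring contact within a chromosome to a fragment that was not a bait, Elovl5 with the most ZT0/ZT6 pairs of the lipid genes, and Per3, 1 of the only 2 core clock genes with such a pair. Capitals mark matches to the E-box CACGTG, the sequence bound by Arntl and Clock, and to the D-box TTATGTAA, bound by Dbp and its relatives. A match is a run of letters and not a shown binding site.
Fras1 promoter, chr5:96802724-96802973, forward strand: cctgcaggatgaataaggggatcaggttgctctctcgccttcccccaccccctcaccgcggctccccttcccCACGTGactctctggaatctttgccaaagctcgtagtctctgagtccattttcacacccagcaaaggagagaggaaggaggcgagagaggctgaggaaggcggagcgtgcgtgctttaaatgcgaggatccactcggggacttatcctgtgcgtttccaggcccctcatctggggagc
Elovl5 promoter, chr9:77764921-77765170, forward strand: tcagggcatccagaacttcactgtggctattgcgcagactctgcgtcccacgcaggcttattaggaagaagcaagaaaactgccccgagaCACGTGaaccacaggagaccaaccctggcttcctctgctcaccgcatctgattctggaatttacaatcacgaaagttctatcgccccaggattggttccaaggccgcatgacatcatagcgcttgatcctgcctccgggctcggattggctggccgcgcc
Per3 promoter, chr4:150418775-150419024, reverse strand: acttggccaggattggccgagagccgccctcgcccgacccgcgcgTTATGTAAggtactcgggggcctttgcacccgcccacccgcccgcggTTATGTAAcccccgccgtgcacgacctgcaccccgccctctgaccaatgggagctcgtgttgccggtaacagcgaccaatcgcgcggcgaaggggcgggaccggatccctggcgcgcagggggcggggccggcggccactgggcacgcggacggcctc

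The Fras1 and Elovl5 stretches held 1 E-box each, and the Per3 stretch held 2 D-boxes. At promoters with ZT0/ZT6 pairs such matches had about the frequency of all promoters with a listed contact. Windows of 300 bases (250 before to 50 after the start) were searched on both strands. An E-box was found at 8.10% (95% interval 7.33 to 8.93) of 4471 promoters with a ZT0/ZT6 pair and at 8.94% of 5145 with a ZT12/ZT18 pair. Over all 15107 protein-coding promoters with a listed contact the share was 8.46%. The D-box was found at 1.03%, 0.739% and 0.861%, with intervals that overlap. The element TAGGTCA, bound by the ROR and REV-ERB receptors, was found at 2.12%, 2.00% and 2.22%.

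At the contacted fragments that were not baits, windows of 1000 bases around the midpoint were searched in the same way. An E-box was found at 12.3% (11.5 to 13.1) of 6404 fragments in ZT0/ZT6 pairs, at 13.7% (12.9 to 14.5) of 6770 in ZT12/ZT18 pairs and at 12.0% of all 111722. The D-box was found at 4.97% (4.46 to 5.53), 4.09% (3.65 to 4.59) and 4.62%. A match to the core of the sequence read by the insulator protein CTCF was found at 8.73%, 9.32% and 8.25%. TAGGTCA was found at 9.53%, 8.70% and 9.79%. The ZT0/ZT6 fragments were within 1 percentage point of all listed fragments for each of these motifs.

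The scores of the ZT0/ZT6 pairs were close to the minimum. The median was 5.88 at ZT0 and 5.97 at ZT6, against 6.97 and 6.99 for all pairs of those lists. The lower of a pair's 2 scores had a median of 5.51 and was at least 7 in 545 pairs and at least 10 in 19. The score was higher at ZT6 in 4002 pairs and higher at ZT0 in 3585. Just inside the threshold, 904 pairs had a lower score under 5.1. Just outside the set, 681 of the 16799 pairs listed at ZT0, ZT6 and 1 further timepoint had a score under 5.1 at that timepoint, so a small shift there would have brought them in.

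**Figure D1:**
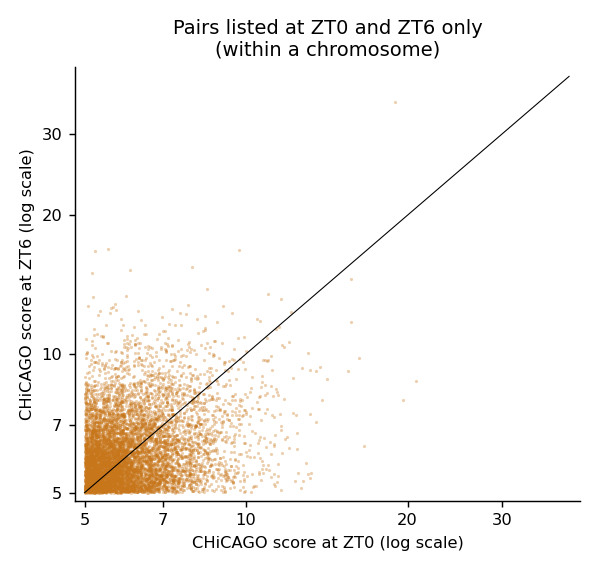
Each point is 1 of the 7615 ZT0/ZT6 pairs within a chromosome, with its CHiCAGO score at ZT0 on the horizontal axis and at ZT6 on the vertical axis, both on a log scale, and the line marks equal scores. Most points lie near the minimum of 5 on both axes, with medians of 5.88 and 5.97 over all 7624 pairs.

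The surroundings of these contacts were often listed at the other timepoints as well. For 71.7% (95% Wilson interval 70.7 to 72.7) of the ZT0/ZT6 pairs, a HindIII fragment directly beside the contacted one was listed with the same bait in some list, and for 58.9% in the ZT12 or ZT18 list. For ZT12/ZT18 pairs the corresponding shares were 71.2%, and 58.1% in the ZT0 or ZT6 list. Only 1171 ZT0/ZT6 pairs, 15.4% (14.6 to 16.2), had no ZT12 or ZT18 contact of the same bait within 10 kb of the contacted fragment, against 17.7% (17.0 to 18.6) of the ZT12/ZT18 pairs judged in the same way. Wilson intervals here and below cover counting error only, and contacts of 1 bait are not independent of each other. At the level of the region rather than the fragment, most ZT0/ZT6 pairs therefore had a counterpart in the ZT12 or ZT18 lists.

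The ZT0/ZT6 pairs spanned longer distances than the other sets of exactly 2 lists. Their median distance between fragment midpoints was 192 kb, and 62.8% (61.7 to 63.9) of the 7615 pairs within a chromosome spanned more than 150 kb. For ZT12/ZT18 pairs the median was 139 kb and the share 46.8% (45.8 to 47.9). For pairs in all 4 lists they were 123 kb and 41.0%. Among pairs of exactly 2 lists, the other 4 combinations had shares between 56.4% (ZT6 and ZT12) and 59.4% (ZT0 and ZT12), so the ZT0/ZT6 pairs had the highest share and the ZT12/ZT18 pairs the lowest. With the lists in the order of the study's summary, the gap closed: 59.4% of the pairs then called ZT0/ZT6 spanned more than 150 kb, against 59.2% of those then called ZT12/ZT18. The Arntl contacts given above bear on which order holds. Pairs of a single list spanned more still, with shares over 150 kb of 66.8% (ZT0 only, median 216 kb) and 66.5% (ZT6 only, 219 kb), against 59.4% for ZT12 only and 61.2% for ZT18 only.

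By distance class, ZT0/ZT6 pairs were 1.95% (1.74 to 2.17) of all listed pairs under 25 kb and 3.80% (3.52 to 4.11) of those between 500 and 1000 kb. ZT12/ZT18 pairs went the other way, from 4.81% (4.49 to 5.15) to 2.76% (2.51 to 3.02). There were 0.405 ZT0/ZT6 pairs for each ZT12/ZT18 pair under 25 kb and 1.38 between 500 and 1000 kb, with the crossing between the classes of 100 to 150 kb and 150 to 250 kb. Above 1 Mb the shares were 3.71% and 3.23%, with overlapping intervals.

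**Figure D2:**
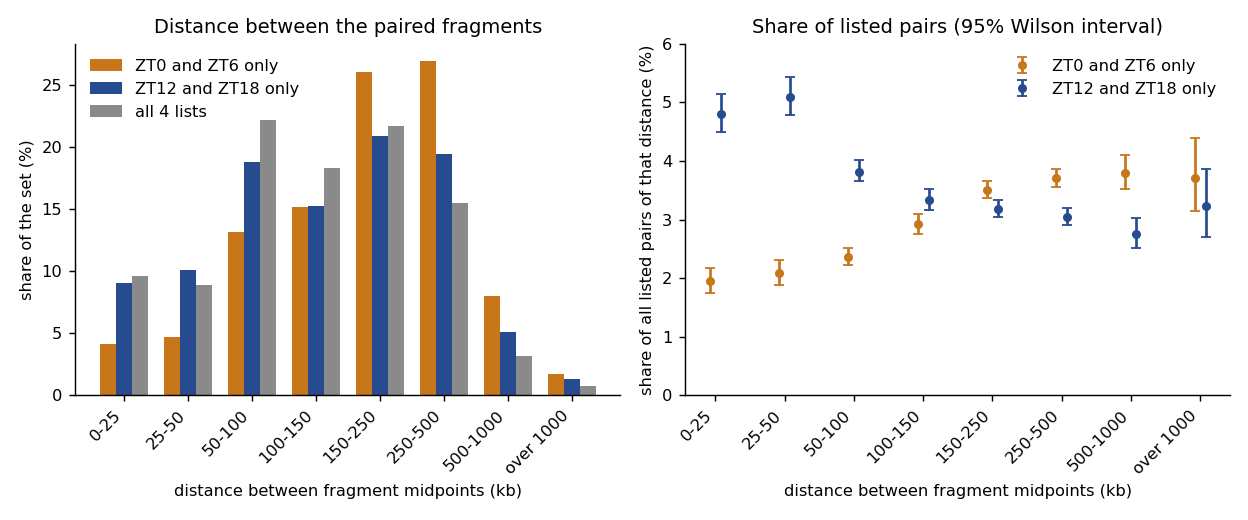
Left, bars give the share of each set in classes of distance between fragment midpoints (kb). Right, points give the share of all listed pairs of a class that were ZT0/ZT6 or ZT12/ZT18 pairs, with 95% Wilson intervals. The ZT0/ZT6 share rises from 1.95% to 3.80% while the ZT12/ZT18 share falls from 4.81% to 2.76% between the shortest class and that of 500 to 1000 kb.

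The difference was present in each class of score. Among pairs whose lower score was between 5 and 5.5, 58.3% of the ZT0/ZT6 and 44.2% of the ZT12/ZT18 pairs spanned more than 150 kb. Among those with a lower score of at least 7, the shares were 75.5% (71.7 to 78.9) of 538 and 54.2% (49.9 to 58.4) of 515. The share was higher for ZT0/ZT6 pairs on each of the 20 chromosomes with at least 20 pairs of both kinds, from 50.4% against 49.4% on chromosome X to 71.6% against 60.7% on chromosome 13. Within single promoters the difference was smaller: of 2376 baits with pairs of both kinds, the median distance was longer for the ZT0/ZT6 pairs in 1340 and shorter in 1036, with a median difference of 12.4 kb.

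**Figure D3:**
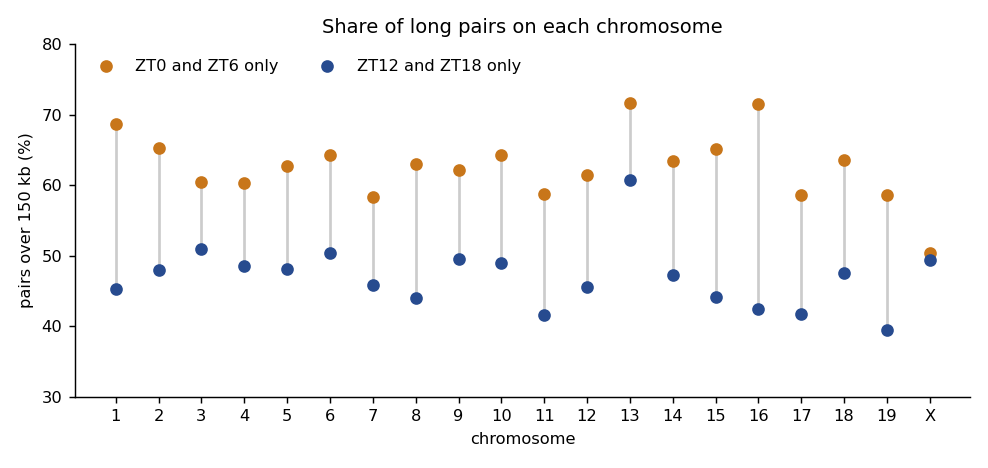
Points give, for each chromosome with at least 20 pairs of both kinds, the percentage of ZT0/ZT6 and of ZT12/ZT18 pairs over 150 kb, joined by a grey line (the vertical axis starts at 30%). The ZT0/ZT6 point is the higher on all 20, and the points of a chromosome nearly coincide on chromosome X.

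The contacted fragments differed in composition as well. Outside baits, their median GC content was 43.8% in ZT0/ZT6 pairs, 46.2% in ZT12/ZT18 pairs and 45.1% in pairs of all 4 lists, and their median length was 2427, 2066 and 2294 bp. In the other list order these differences were absent or turned, with 44.5% against 44.4% GC and 2066 against 2351 bp. Compared at like distances, the GC content was 44.4% against 47.7% under 50 kb and 43.7% against 45.4% between 150 and 500 kb. By annotation, 37.4% (36.3 to 38.6) of the ZT0/ZT6 contacted fragments were intergenic, 32.2% held an exon, 28.3% were intronic and 2.11% held a gene start. For ZT12/ZT18 pairs 32.6% (31.5 to 33.7) were intergenic and 35.5% held an exon. Contacts lay downstream of the gene start, along the direction of transcription, in 52.8% (51.6 to 54.0) of ZT0/ZT6 pairs and 54.6% (53.5 to 55.8) of ZT12/ZT18 pairs.

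Fewer of the ZT0/ZT6 than of the ZT12/ZT18 pairs joined promoters to each other. Both ends were baits in 987 pairs, 12.9% (12.2 to 13.7), against 17.0% (16.2 to 17.8) of ZT12/ZT18 pairs and 17.5% of pairs in all 4 lists. The remaining combinations of 2 lists lay between 12.6% (ZT6 and ZT18) and 16.9% (ZT0 and ZT18), so the ZT0/ZT6 share was near the low end of that range and not below it. In the other list order the direction turned, with 15.9% against 12.6%. At like distances the share was 12.9% against 17.7% between 150 and 500 kb, and 21.4% against 31.3% above 500 kb. Among the 1171 pairs with no ZT12 or ZT18 contact of the same bait within 10 kb it was 33.0% (30.3 to 35.7). This share was not computed for ZT12/ZT18 pairs under the same rule, so it cannot be called particular to ZT0/ZT6 pairs.

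The baits of ZT0/ZT6 pairs lay in less gene-dense DNA than those of ZT12/ZT18 pairs. The median number of protein-coding gene starts within 500 kb on each side of the bait was 13, against 16 for ZT12/ZT18 pairs and 15 for pairs of all 4 lists. It was also 13 for pairs of ZT6 and ZT12 and 14 for pairs of ZT6 and ZT18, and in the other list order the direction turned, with 15 against 14. Contacts were split into 4 classes by this number, at 9, 16 and 29 genes. In the class with the fewest, ZT0/ZT6 pairs were 3.45% (3.32 to 3.59) and ZT12/ZT18 pairs 2.99% (2.87 to 3.11) of contacts, and in the class with the most they were 2.61% (2.50 to 2.73) and 3.96% (3.82 to 4.10). The difference in distance was present in all 4 classes, at 73.6% against 57.9% over 150 kb in the sparsest and 59.7% against 44.9% in the densest. Over the 20 chromosomes with at least 20 pairs of both kinds, the ZT0/ZT6 share of pairs ran from 2.66% on chromosome 17 to 3.64% on chromosome X, and chromosome Y had 6 among 49 pairs.

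Single pairs stood out by their scores. The highest within a chromosome joined the promoter of Ndufa6, a subunit of respiratory complex I, to the start of the gene model AC113593.1 at 53.3 kb on chromosome 15, with a score of 18.91 at ZT0 and 35.12 at ZT6. Next came the olfactory receptor gene Olfr849 and AC121953.1 at 591 kb, with scores of 15.68 and 14.56. The Fras1 promoter, whose gene encodes an extracellular matrix protein of basement membranes, contacted the 200 bp intronic fragment printed above at 390 kb within the gene itself, with 12.11 at ZT0 and 12.33 at ZT6. These 3 scores at ZT0 and ZT6 were well above the list medians, while ZT12 and ZT18 gave no listed value for the same pairs.

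The next of the 10 highest pairs joined gene families and neighbours. Prss16, a thymic protease gene, and Abt1, which encodes a nucleolar factor, were listed at 1411 kb with 15.7 and 11.73. Ms4a4b and Ms4a3, membrane protein genes of blood cells, were listed at 198 kb with 11.62 and 13.17. The promoter of C630050I24Rik contacted an intron of Nfat5, the osmotic stress factor, at 187 kb with 11.54 and 11.45. On chromosome 13 the promoter fragment of the histone genes Hist1h2ag and Hist1h4i contacted an intron of the Hist1h2be model at 1551 kb with 11.35 and 11.32, and that of Hist1h2af, Hist1h3g and Hist1h4h contacted an intron of Trim27 at 2343 kb with 10.97 and 13.51. The promoter of Dmxl1 contacted an exon of Srfbp1 at 2644 kb with 10.95 and 10.8, and Nat8b and Dusp11, which encodes an RNA phosphatase, were listed at 30.4 kb with 10.63 and 11.81. Among the 10, only the pairs of Dmxl1 and of Nat8b and Dusp11 had no contact of the same bait within 10 kb at ZT12 or ZT18.

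Of the 7624 ZT0/ZT6 pairs, 9 joined different chromosomes, against 4 of 8649 ZT12/ZT18 pairs and 34 of 80235 pairs in all 4 lists. The other combinations of 2 lists had between 1 (ZT0 and ZT12) and 6 (ZT6 and ZT18). A pair of the 9 had the highest scores of all. A 329 bp fragment of chromosome 5 (chr5:33073588-33073916, in an exon of the gene model Gm2420) was listed with the fragment of Gm11399 and Gm11400 on chromosome 11 at 595.14 (ZT0) and 578.99 (ZT6), and with the fragment of Sfi1 nearby at 164.06 and 170.95. The chromosome 5 fragment had no pair at all in the ZT12 and ZT18 lists. No stretch of 25 bases was shared between it and either chromosome 11 fragment. Only these fragments were compared. Copies elsewhere in the genome were not searched for, and whether the reads map to 1 place was not tested. The Gm11399 fragment had 22 contacts in each of the ZT0 and ZT6 lists, then 13 and 15, and the Sfi1 fragment had 30 and 35, then 15 and 20. They accounted for 6 of the 9 pairs. These totals include the ZT0/ZT6 pairs themselves.

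ZT0/ZT6 pairs were spread over many promoters. Of 18165 baits, 5296 (29.2%) had at least 1, 3390 had exactly 1 and 152 had at least 5, against 5976 with at least 1 and 225 with at least 5 ZT12/ZT18 pairs. Baits with a ZT0/ZT6 pair had a median of 22 contacts and the rest 6, so a bait with many contacts had more chances to hold one. Over all baits, 3.02% of contacts (counted from both ends) were ZT0/ZT6 pairs and 3.55% were ZT12/ZT18 pairs. Contacts per list given below for a bait include its ZT0/ZT6 pairs. The rule places these at ZT0 and ZT6 only, so a fall after ZT6 is in part set by it.

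The bait with the most was Qpctl on chromosome 7, which encodes a glutaminyl cyclase of the Golgi. Of its 114 distinct contacts, 14 were ZT0/ZT6 pairs and 2 were ZT12/ZT18 pairs, and in the order of the day its lists held 84, 81, 71 and 53 contacts. Tomm40, which encodes the import pore of the outer mitochondrial membrane, lies nearby and had 13 of 151, and its lists held 129, 137, 102 and 111. Both promoters reached into the same region: fragments in Ppm1n, Rtn2 and Mark4 were contacted by each of them in ZT0/ZT6 pairs. The Mark4 fragment scored 14.15 and 8.84 with Tomm40 and 5.52 and 5.21 with Qpctl.

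Some baits had their ZT0/ZT6 pairs far away or close together. All 9 of Ckmt2, which encodes the mitochondrial creatine kinase of muscle, lay between 823 and 1068 kb away, over Rasgrf2 and the mismatch repair gene Msh3. This bait had 40 (ZT0) and 36 (ZT6) contacts against 15 (ZT12) and 25 (ZT18), the 9 pairs included. Abt1 had 9 of 108, 6 of them at 1370 to 1673 kb in the far part of the histone cluster, and the Hist1h4h fragment had 9 of 136, from 182 to 2371 kb. Pask, which encodes a nutrient-responsive kinase, had 9 of 129 over Hdlbp, Farp2 and Atg4b, and its neighbour Mterfd2 had 8 of 68. The bait of the gene model 2410066E13Rik had 10 of 90, and that of SNORD121A, a small nucleolar RNA model, had 9 of 155. Each of these baits had between 1 and 3 ZT12/ZT18 pairs.

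Neighbouring fragments were seldom ZT0/ZT6 contacts together. The ZT0/ZT6 contacts of a bait formed 8187 single fragments, 200 runs of 2 adjacent fragments and 8 runs of 3. The run with the highest summed score belonged to Ncoa2, a coactivator of nuclear receptors, whose promoter contacted 3 adjacent intronic fragments of its own gene (chr1:13185213-13192316) at a median of 177 kb downstream. Their scores at ZT0 were 8.81, 8.71 and 7.44, and at ZT6 they were 8.04, 10.66 and 9.17. A further ZT0/ZT6 contact at 194 kb scored 9.36 and 7.08. In the order of the day the bait had 33, 60, 34 and 23 contacts, with 8 ZT0/ZT6 and no ZT12/ZT18 pairs.

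**Figure D4:**
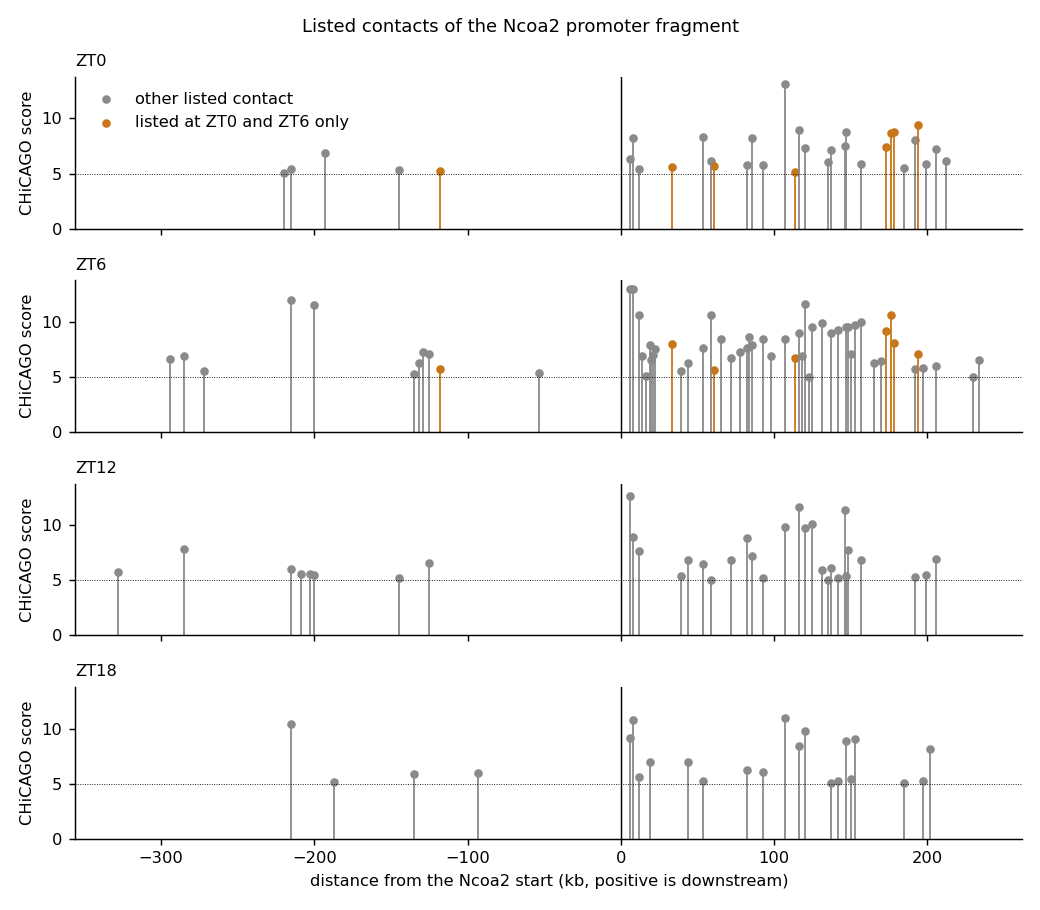
Each panel is 1 list, with the distance of each contacted fragment from the Ncoa2 start on the horizontal axis (kb, positive downstream) and its CHiCAGO score on the vertical axis; orange marks ZT0/ZT6 pairs, grey other contacts, and the dotted line the minimum of 5. The orange block between 173 and 178 kb is filled at ZT0 and ZT6 and empty at ZT12 and ZT18, while contacts at 192 kb (ZT12) and 185 kb (ZT18) lie close to it.

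The other runs had lower summed scores. Gm5111 contacted 3 fragments in Gm16630 at 407 kb, the first 2 of which are printed above, with scores of 6.8, 9.37 and 6.82 at ZT0 and 6.94, 5.7 and 10.79 at ZT6. Fam120a contacted its own gene body at 74.4 kb with scores from 5.16 to 8.05 at ZT0 and a highest score of 10.17 at ZT6. Hprt, the purine salvage enzyme on chromosome X, contacted Fam122b at 281 kb with scores from 5.23 to 10.7. Close to each of these runs, contacts of the same bait were in all 4 lists. From the gene start (upstream negative) they lay at -414, -412 and -411 kb (Gm5111), 84.9 kb (Fam120a), and 282 and 285 kb (Hprt). At ZT12 and ZT18 the nearest of them scored 8.87 and 11.5 (Gm5111), 10.05 and 5.95 (Fam120a), and 6.98 and 7.1 (Hprt).

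Cdh15, which encodes the cadherin of muscle, contacted Spg7, a mitochondrial protease gene, at 241 kb with scores from 6.24 to 7.09. Itpr1, the inositol trisphosphate receptor gene, contacted its own gene body at 164 kb. Vldlr, a lipoprotein receptor gene, contacted D19Bwg1357e at 198 kb and had 10, 10, 7 and 2 contacts from ZT0 through ZT18, its 5 ZT0/ZT6 pairs included. Srsf5, a splicing factor gene, contacted an intergenic stretch at 175 kb upstream and had 6, 10, 3 and 1, its 4 ZT0/ZT6 pairs included. Near these runs the ZT12 or ZT18 lists held contacts at 236 kb (Cdh15), 172 kb (Itpr1), 206 kb (Vldlr) and 160 kb (Srsf5) from the gene start.

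Among liver gene lists, the shares of contacts that were ZT0/ZT6 pairs stayed near or below the 3.02% of all baits. The core clock genes had 2 of 129 contacts over 11 baits, 1.55% (0.426 to 5.48), and 13 ZT12/ZT18 pairs, 10.1% (5.98 to 16.5). The 2 were a 952 kb contact of Per3 with the start of Phf13 (6.32 at ZT0, 5.98 at ZT6) and a 3.66 kb contact of Nr1d2, the second REV-ERB gene, within its own intron (5.33 and 5.22). Neither had a contact of the same bait within 10 kb at ZT12 or ZT18. Arntl, Clock, Npas2, Per1, Per2, Cry1, Cry2 and Nr1d1 had none, and no listed bait held the start of Rora.

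Per1 and Per2, which encode clock repressors, had more contacts in the ZT12 and ZT18 lists. Per1 had 5 (ZT0) and 7 (ZT6) contacts against 19 (ZT12) and 12 (ZT18), with 5 ZT12/ZT18 pairs. Per2 had 9 and 10 against 19 and 13, with 2. In the other list order, Per1 would have 5, 19, 12 and 7 contacts from ZT0 to ZT18, and Per2 9, 19, 13 and 10. By the labels, other repressor genes of the clock did not share the higher counts at ZT12 and ZT18. In the order of the day, Per3 had 4, 6, 4 and 3 contacts, Cry1 had 1, 2, 0 and 0, and Cry2 had 5, 12, 7 and 7. For Nr1d1 they were 6, 10, 9 and 8, and for Nr1d2 2, 3, 1 and 1.

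Clock output regulators had 7 of 489 contacts, 1.43% (0.695 to 2.93), against 23 ZT12/ZT18 pairs. Of these, 3 belonged to Nfil3, a repressor of D-box genes, at 115 to 245 kb in intergenic DNA. A further 2 belonged to Bhlhe40, which encodes a repressor acting at E-boxes, and 1 of these (6.89 and 5.86, 288 kb) was the fragment directly beside the run of Itpr1. In addition, Tef and Dbp had 1 each, the latter at 642 kb to the start of Nosip and Prrg2 (5.48 and 7.0). Glucose and glycogen genes happened to have the same counts, 7 of 489 against 23. Irs2, the insulin receptor substrate of hepatocytes, held 4 of them at 99.2 to 420 kb. Foxo1, the insulin-controlled factor of gluconeogenesis, had 1 (the 210 bp fragment printed above, at 346 kb with 5.66 and 5.57) and 9 ZT12/ZT18 pairs among 129 contacts.

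Lipid synthesis and the liver transcription factors had at least as many ZT0/ZT6 as ZT12/ZT18 pairs. The lipid genes had 12 of 426, 2.82% (1.62 to 4.86), against 9. Elovl5, a fatty acid elongase gene, had 6 of 127, and 4 of them lay side by side or nearly so at 134 to 153 kb over and beyond Gcm1, with 8.78, 8.69, 7.41 and 6.02 at ZT0 and 5.29, 6.48, 6.01 and 5.36 at ZT6. Fads1, a fatty acid desaturase gene, had 2 at 79.7 and 83.3 kb around Fads2, and Me1, Acaca, Fasn and Lpin2 had 1 each.

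The 17 liver transcription factors and nuclear receptors had 19 of 552, 3.44% (2.21 to 5.31), against 16, and 9 of the 17 baits held at least 1. Nr1h3 (LXR alpha, the oxysterol receptor) had 6 of 77, with 60, 43, 41 and 40 contacts in the lists from ZT0 to ZT18, the 6 included. The 6 reached C1qtnf4 (8.11 and 7.9), Psmc3, the Sfpi1 start and body, Lrp4 and Zfp408. Onecut1, a hepatocyte factor gene, had 5 of 76, all at 319 to 581 kb on 1 side. Cebpb had 2 in intergenic DNA at 103 and 119 kb, and Esrra, Foxa1, Foxa2, Nr1i2 and Rxra had 1 each.

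The remaining lists had few. Secreted plasma proteins had 12 of 566, 2.12% (1.22 to 3.67), among them 2 each for Afp, Apoa1 and Igf1, and the only listed contact of the coagulation factor gene F9, at 398 kb to the fragment of Mir505 (7.9 and 8.85). Cholesterol and bile acid genes had 4 of 242, 1 each for Cyp27a1, Slc10a1, Sqle and Nr1h4, the last with 7.98 and 8.36 at 76.2 kb. Fatty acid oxidation genes had 4 of 225, 3 of them for Cd36, the fatty acid transporter.

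Heat shock genes had 2 of 193, for Hsp90aa1 and Hspa5, and developmental regulators of other tissues had 4 of 148, 1 each for Gata1, Pax6, Pou3f2 and Sox2. The xenobiotic and heme genes had 0 of 246, which allows a share of up to 1.22% by 3 counts of the total and 1.54% by the Wilson interval. The median share per bait was 0 in all lists but that of the liver transcription factors (2.17%), and 0 over all baits. For each list but that of the xenobiotic and heme genes and those of clock output regulators and of glucose and glycogen, the interval held the 3.02% of all baits.

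By position, ZT0/ZT6 pairs were most numerous in a few gene clusters. These clusters and the families that follow were singled out after their values were seen. Of all stretches of 1 Mb, that at 99 to 100 Mb of chromosome 11, where the keratin and keratin-associated genes of skin and hair lie, held the most: 86 ZT0/ZT6 against 35 ZT12/ZT18 pairs among 1558. These were 5.52% and 2.25% of its pairs, against 3.08% and 3.50% of all listed pairs. Its baits had 896 and 849 pairs in the ZT0 and ZT6 lists, the ZT0/ZT6 pairs included, and 720 and 793 in the others. Of its 64 baits, 48 held at least 1 ZT0/ZT6 pair (29.2% of all baits did), and 34 held more of them than of ZT12/ZT18 pairs while 14 held fewer. The stretch was picked for its number of ZT0/ZT6 pairs, so this lean of its baits follows in part from the choice. In 32 of the 86 pairs both ends were baits of the stretch, and such pairs count for each of them. The highest scores were 16.25 (ZT0) and 9.78 (ZT6) for Krtap4-6 at 342 kb, and 8.78 and 9.23 for the pair of Krt12 and Krt33b at 604 kb. The next stretch was 23 to 24 Mb of chromosome 13, with Abt1 and Hist1 genes, at 75 against 31 among 1622 (4.62% and 1.91%).

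By family, keratin genes had 69 ZT0/ZT6 pairs among 1565, 4.41% (3.50 to 5.54), and 43 ZT12/ZT18 pairs. Olfactory receptor genes, over 598 baits, had 133 of 3171, 4.19% (3.55 to 4.95), against 88. Vomeronasal receptor genes had 12 of 257 against 1. The Hist1 genes, which are used by dividing cells, had 67 of 1586, 4.22% (3.34 to 5.33), against 34. Of the 65 with a promoter fragment of the chromosome 13 cluster at 1 end, 31 spanned more than 1 Mb and the median was 294 kb. Here the ZT12/ZT18 pairs were the longer ones, with 20 of 33 over 1 Mb and a median of 1636 kb.

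The remaining families had fewer ZT0/ZT6 than ZT12/ZT18 pairs, except the Hox genes with 24 against 19 among 696. Serpins, which include abundant plasma protease inhibitors, had 12 of 621, 1.93% (1.11 to 3.35), against 49 ZT12/ZT18 pairs, 7.89% (6.02 to 10.3). Cytochromes P450 had 16 of 781 against 25, and solute carriers 121 of 4668, 2.59% (2.17 to 3.09), against 159. Zinc finger genes, at 129 of 4208 or 3.07%, were at the share of all baits. Liver activity was not measured in these lists, and no test of the families was run.

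**Figure D5:**
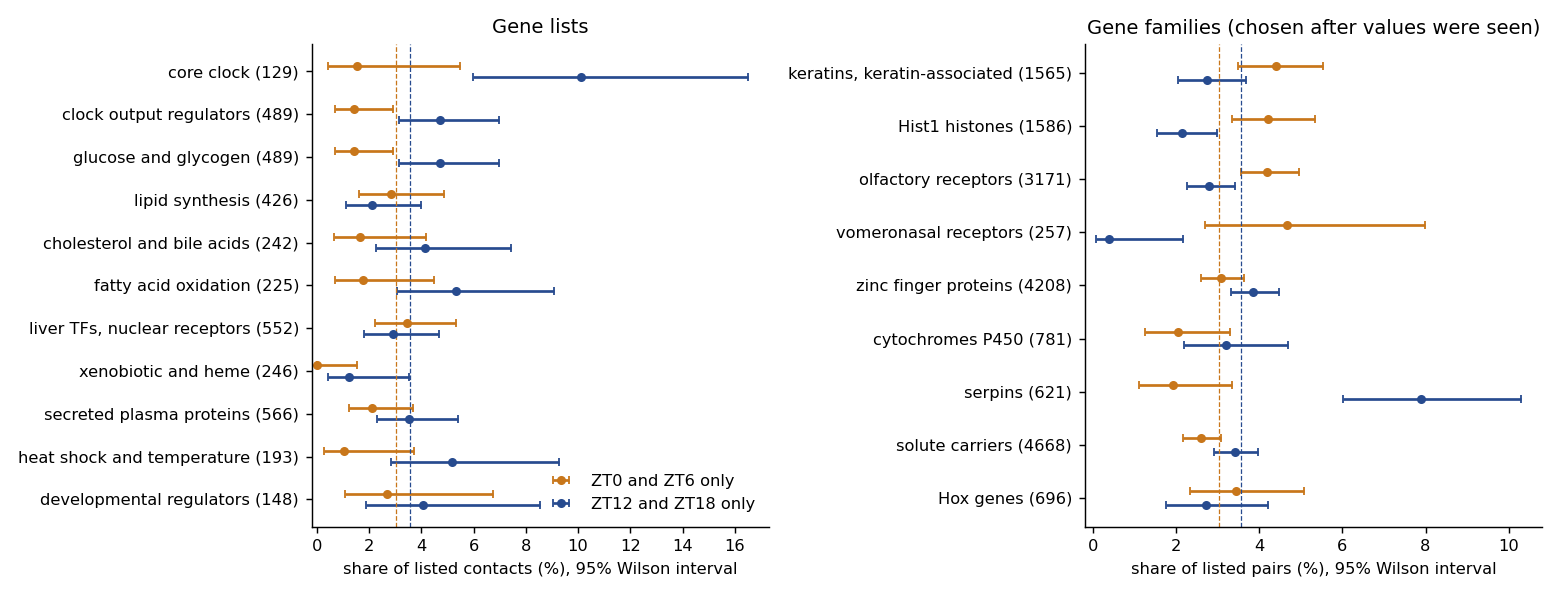
Points give the share of listed contacts (left, gene lists) or pairs (right, gene families) that were ZT0/ZT6 or ZT12/ZT18 pairs, with 95% Wilson intervals; the number of contacts or pairs is in brackets, and dashed lines mark the shares over all baits, 3.02% and 3.55%. Keratin, Hist1 and olfactory receptor genes have the ZT0/ZT6 point to the right of the ZT12/ZT18 point, and serpins and core clock genes have it far to the left.

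The study's circadian genes were used to ask whether ZT0/ZT6 pairs belong to promoters whose transcription peaks in the light. At the deposited minimum score, the shares of both groups of promoters lay within each other's intervals. Promoters of genes peaking at ZT0 or ZT6 had 266 ZT0/ZT6 pairs among 10090 contacts, 2.64% (2.34 to 2.97), and promoters of genes peaking at ZT12 or ZT18 had 300 among 11258, 2.66% (2.38 to 2.98). The intervals also overlapped for genes oscillating at the intron level (2.41% and 2.58%) and with 1 promoter per 1 Mb (2.78% and 2.67%). With a score of at least 7 required in every list they still overlapped, at 2.63% (2.23 to 3.09) and 2.39% (2.03 to 2.81). With a score of at least 10 required in every list the shares parted, at 3.46% (2.81 to 4.26) of 2484 and 2.16% (1.67 to 2.79) of 2639 contacts. None of the pairs counted there is a ZT0/ZT6 pair as defined above, since all were also listed at ZT12 or ZT18 with a score under 10. Of the ZT0/ZT6 pairs themselves, none at these promoters scored at least 10 at both ZT0 and ZT6. By peak time, the lowest share was that of the ZT0 genes, 2.17% (1.78 to 2.64), and the highest that of the ZT6 genes, 3.00% (2.59 to 3.48), with 2.76% for ZT12 and 2.42% for ZT18 genes. Over all 1118 circadian promoters the share was 2.63% (2.43 to 2.85), below the 3.05% (2.99 to 3.12) of other baits. These promoters had more contacts each, with a median of 13 against 9.

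Among circadian promoters, Mterfd2 (peak at ZT6) had the most, 8 of 68, with 42, 30, 28 and 22 contacts in the order of the day. Ahcy (peak at ZT18), which encodes the enzyme that clears S-adenosylhomocysteine, had 6 of 26 and no ZT12/ZT18 pair, with 18, 24, 14 and 11. Itpr1 and Uap1l1 (both peak at ZT12) had 5 each and no ZT12/ZT18 pair. These genes peak at ZT6, ZT12 or ZT18. Of genes that peak at ZT0, Hist1h2bc had 5 of 112 and Gm4952 had 4 of 47. Genes of every peak time were thus among those with the most ZT0/ZT6 pairs. The contacts per list given here include the ZT0/ZT6 pairs. Only 1 ZT0/ZT6 pair joined circadian promoters to each other, that of Gm15690 (ZT12) and Slc24a6 (ZT6) at 34.9 kb with 7.3 and 5.32, against 5 ZT12/ZT18 pairs.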

How the data were processed

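P-CHi-C libraries of mouse liver were sequenced by the authors, mapped to mm9 with HiCUP and, after pools were merged, called with CHiCAGO (versions not given in the sources used here). What the authors deposited is a CHiCAGO score for every pair that reached 5, with 1 list for each timepoint. A pair missing from a list may have scored just under 5, and these lists hold no read counts. The read totals that the study gives for each pool were not used here. Lists were assigned to timepoints by the sample labels.

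Pairs were treated as unordered. Any fragment given as bait in some list counted as a bait, and the distance is that between fragment midpoints. Cutting the mm9 reference with HindIII in silico gave 823373 fragments, and 129886 of 129887 listed fragments were identical to one of them. Genes came from the GENCODE annotation of that build. Shares have 95% Wilson intervals (scipy 1.17.1, numpy 2.4.6, pandas 2.3.3, python 3.11.15), and no test was run. Functions were checked on simulated lists with known answers.

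The pairs and gene lists were chosen with earlier results of these data known. Named are the 10 highest-scoring pairs within a chromosome with no bait repeated, the 8 baits with most pairs, the 5 longest runs (3 tied runs were added), up to 3 genes per list and all core clock genes, and the pairs between circadian promoters. Further genes of the lists, the pairs between chromosomes, the gene families, the keratin and Hist1 stretches and the leading circadian promoters were named after their values were seen. Circadian genes and peak times were copied from the study's table: 1135 of 1254 genes had a bait, and 1108 of 1118 promoter fragments had a single peak time. No column of per-sample values was left unmapped. Some genes of the lists and 1 promoter sequence are not reported here.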

Additional observations from a re-analysis of the deposited data

How the results depend on the processing

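No paired analysis was possible because pools were merged before interactions were called, and for the same reason no replicate could be left out. The number of ZT0/ZT6 pairs, 7624, was 3700 and 1678 with a score of at least 7 and 10 required in every list, 545 and 19 with these scores required only at ZT0 and ZT6, and 1171 without pairs that had a ZT12 or ZT18 contact of the same bait within 10 kb. It was 7554 with equally long lists and 6098 with the lists in the order of the study's summary. Where a score was required in every list, a pair below it counted as missing. Those sets therefore include pairs that were deposited at ZT12 or ZT18 with a lower score. The share over 150 kb, 62.8%, was 75.5% and 68.8% with scores of at least 7 and 10 at ZT0 and ZT6, 58.9% with at least 10 in every list, 66.2% with the 10 kb rule, 59.4% in the other list order and 61.2% by the gap between fragments. It stayed above the ZT12/ZT18 share treated alike, except with a score of at least 10 at both timepoints, where the latter was 84.6% and the ZT0/ZT6 share rested on 16 pairs. In the other list order the gap was 59.4% against 59.2%. The promoter-promoter share, 12.9%, was 18.7% and 42.1% with scores of at least 7 and 10 at ZT0 and ZT6, 15.9% with at least 10 in every list, 33.0% with the 10 kb rule and 15.9% in the other list order (12.6% for the ZT12/ZT18 pairs of that order). Under the score and 10 kb settings this share was not computed for ZT12/ZT18 pairs. For diurnal and nocturnal promoters, 2.64% and 2.66%, the shares were 0.198% and 0.169% with at least 7 and 0% and 0% with at least 10 at ZT0 and ZT6 (0 of 10090 and 0 of 11258 contacts, with upper Wilson limits of 0.0381% and 0.0341%), 3.46% and 2.16% with at least 10 in every list (intervals that do not overlap), 0.317% and 0.373% with the 10 kb rule, and 2.28% and 2.40% in the other list order. The pairs behind 3.46% and 2.16% were all deposited at ZT12 or ZT18 too, with a score under 10. With at least 7 in every list the diurnal and nocturnal shares were 2.63% and 2.39%. They were 2.41% and 2.58% for genes oscillating at the intron level, and 2.78% and 2.67% with 1 promoter per 1 Mb. In these 3 settings the intervals overlap. Leaving out the fragments of the highest pairs between chromosomes, or the keratin and Hist1 stretches, both chosen after seeing the data, moved no value beyond its interval. Causes were not tested.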

Other observations

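The 12 most strongly scored ZT0/ZT6 pairs within a chromosome that had no ZT12 or ZT18 contact of the same bait within 10 kb held several groups of neighbours. On chromosome 6 the promoters of Dusp11 and Figla, a germ cell factor gene, were listed at 56.4 kb with 11.77 at ZT0 and 10.37 at ZT6. Also there, the pseudogene Spr-ps1 was listed with the start of Noto and Smyd5 at 266 kb (9.68 and 16.81) and with the start of Emx1, a brain homeobox gene, at 32.2 kb (9.97 and 9.26). On chromosome 3 the promoter fragment of Ccdc76 was listed with Vcam1, an adhesion molecule gene of blood vessels, at 482 kb (13.05 and 10.03) and with Frrs1 at 264 kb (8.74 and 10.69). Slmap and Pde12 were listed at 136 kb with 13.75 and 9.35. Fmo1, which encodes a flavin monooxygenase, and Scyl3 were listed at 1063 kb with 8.72 and 9.93. All of these scores lay above 8.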
